A study of Mus musculus with 19 samples.

Results

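The comparison is between hearts labelled PDK1 CKO and hearts labelled WT, all taken at postnatal day 21 (P21). It uses 7 of the series' 19 bulk RNA-seq libraries of mouse heart: 3 knockout libraries, titled with the numbers 55, 59 and 64 and called cKO here, and 4 WT libraries, of which 2 carry B6 in their titles (B6 2 and B6 3) and 2 are plain numbers (57 and 60). They were chosen by age, with the cKO libraries taken by the knockout mark in their titles and the WT libraries by their genotype label. A further P21 library, 63, has a title without the knockout mark and a PDK1 CKO genotype label, so it entered no group. Expression was deposited as TPM, an abundance normalised for transcript length and library size, for 56066 genes. The labels name the tissue as heart and the RNA as total RNA, and they do not state the Cre driver, the strain, whether animals were pooled, or that libraries came from separate animals, so each p-value measures only the spread between these libraries. The P7 groups used in the last comparison have the same 2 genotype labels at postnatal day 7, with 3 cKO libraries (69, 75 and 82) and 5 WT libraries (1, 3, 72, 76 and 77). Of these WT libraries, 1 and 3 carry the word heart in their titles, and 72, 76 and 77 are plain numbers.

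PDK1, the phosphoinositide-dependent kinase encoded by Pdpk1, sits below the insulin and insulin-like growth factor receptors. When PI3-kinase makes its lipid messenger at the membrane, PDK1 phosphorylates the activation loop of AKT and of related kinases such as S6 kinase and SGK, which in muscle govern glucose use, protein synthesis, cell growth and survival. In the weeks after birth the mouse cardiomyocyte stops dividing, enlarges, replaces fetal contractile and channel isoforms and moves its fuel use toward fatty acid oxidation in an expanding mitochondrial network. The name PDK1 is also used for a pyruvate dehydrogenase kinase, encoded by Pdk1.

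Pdpk1 (chromosome 17, 24073680 to 24150924, GRCm38) had scaled TPM of 5.24, 4.96 and 4.49 in cKO and 8.06, 7.62, 7.05 and 6.49 in WT (in the order 55, 59, 64 and B6 2, B6 3, 57, 60, kept for all values). Every cKO library lay under every WT library, and the log2 change was -0.49 ± 0.093 (SE; limma, adjusted p = 0.0211). The call was lost without WT B6 2, WT B6 3, cKO 59 and cKO 64 in turn (log2 -0.50 to -0.44, adjusted p = 0.0592 to 0.0858). With the TPM unscaled it was -0.31 (adjusted p = 0.0684). Pdk1 had 35.6, 29.6 and 28.7 in cKO and 25.6, 28.3, 30.1 and 28.9 in WT, with overlapping groups (log2 change 0.14, adjusted p = 0.411). The values are for whole genes, so a removed exon cannot be seen in them. Cardiomyocyte genes were abundant in all 7 libraries: the cardiac myosin heavy chain Myh6 was between 7661 and 9174 scaled TPM, and the markers of lung and thymus tested (Sftpc, Scgb1a1, Ptcra and Rag1) were under 0.1 in each. Albumin (Alb), a liver gene, was at 8.41 in WT B6 2 and at most 0.246 in the other 6 libraries.

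Across the 13202 genes that reached 1 TPM in 3 or more of the 7 libraries, 1043 (7.9%) passed an adjusted p of 0.05, 450 higher (3.41%) and 593 lower (4.49%) in the cKO hearts. Most changes were modest: 56 genes rose and 73 fell by 2-fold or more, and the median log2 change was 0.52 among the higher and -0.50 among the lower calls. In 3089 genes (23.4%) the 3 cKO libraries lay wholly to 1 side of the 4 WT libraries, and these include all 1043 calls. The split of directions depended on scaling. With the TPM left as deposited the median gene was 0.19 higher in the cKO libraries on the log2 scale, and the calls were 1931 higher (14.6%) and 242 lower (1.83%), so changes are given relative to the median gene. The calls numbered 504 without WT B6 2, 446 without WT B6 3, 673 without cKO 55, 390 without cKO 59 and 396 without cKO 64, and 288 (2.18%) passed in all 7 such fits. Only WT libraries carry B6 in their titles, so the comparison was also run against the 2 plain-number WT libraries alone. That fit gave 51 calls (0.386%, with 21 higher, 0.159%, and 30 lower, 0.227%). With title style as a term there were 335 calls (2.54%, with 117 higher, 0.886%, and 218 lower, 1.65%). Of the 1043 calls, 306 also passed with the term. Both fits estimate the change against the plain-number WT libraries (log2 4.97 for Nppa in each). With the term, the B6 libraries add only to the estimate of spread, so these are not 2 separate checks.

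Genes given below with their values and without remark passed with each of the 7 libraries left out. Against the plain-number WT libraries alone, 19 of the 101 named genes that passed kept their call, namely Nppa, Nmrk2, Fhl2, Tnni2, Cacna2d1, Prkar1a, Slc25a20, Acaa2, Rxrg, Bcl2, Angpt1, Psme4, Gm10184, P4ha3, Pold3, Bex1, Cdkl1, Csdc2 and Slc36a2. The title style term ended the calls of Pdpk1, Actn1, Ccn2, Kcnip2, mt-Cytb, mt-Nd4, Ndufs1, Mrps35, Insr, Lama4, Col4a1, Col3a1, Fgf16, Nnt, Mief2, Mtfp1, Gabarapl1, Rab7, Tnfrsf12a, Eps8l1, Gnb3, Tmem100 and Rtn4r. With the TPM unscaled, Pdpk1, Smyd1, Casq2, Trdn, Pfkm, Bckdha, Ndufs1, Mrps22, Mrps35, Immt, Fbxo31, Fgf16, Mief2, Mtfp1 and Rab7 no longer passed. No named call changed direction under any of these settings. In every call the groups did not overlap, so fits on fewer of these libraries could hardly have reversed a direction.

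The libraries also differed in a way that genotype does not explain. The first principal component (33.3% of the variance) placed the cKO libraries between 22.4 and 23.8 and the WT libraries between -24.5 and -5.45, and the second (24.2%) set cKO 55 and WT 57 (-25.6 and -29.9) apart from the other 5 libraries (8.56 to 13.2). Leaving out that pair gave 947 calls (7.17%, with 433 higher, 3.28%, and 514 lower, 3.89%). The male sex gene Ddx3y was at 19.2, 18.1 and 18.7 scaled TPM in cKO 55, WT 57 and WT B6 2. In each other library it was at most 0.0268, and Xist was at 31.4 to 39.2. Sex was thus not balanced between the groups, and it was not a term in the fits. The share of TPM in mitochondrially encoded genes was 20.3% ± 0.0802 (SD, n = 3) in the cKO and 23.5% ± 0.759 (n = 4) in the WT libraries, and the groups did not overlap (exact permutation test, p = 0.0571, the smallest that 35 splits allow, two-sided). With nuclear look-alikes of these genes counted too, the share was 38.2% to 38.3% in the cKO and 42.5% to 45.3% in the WT libraries. The values of the mitochondrial genes alone therefore leave out the TPM assigned to look-alikes. The files hold no read counts, so the depth behind each value is unknown. In bulk tissue, fewer cells of a type and less RNA per cell cannot be told apart.

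**Figure D1:**
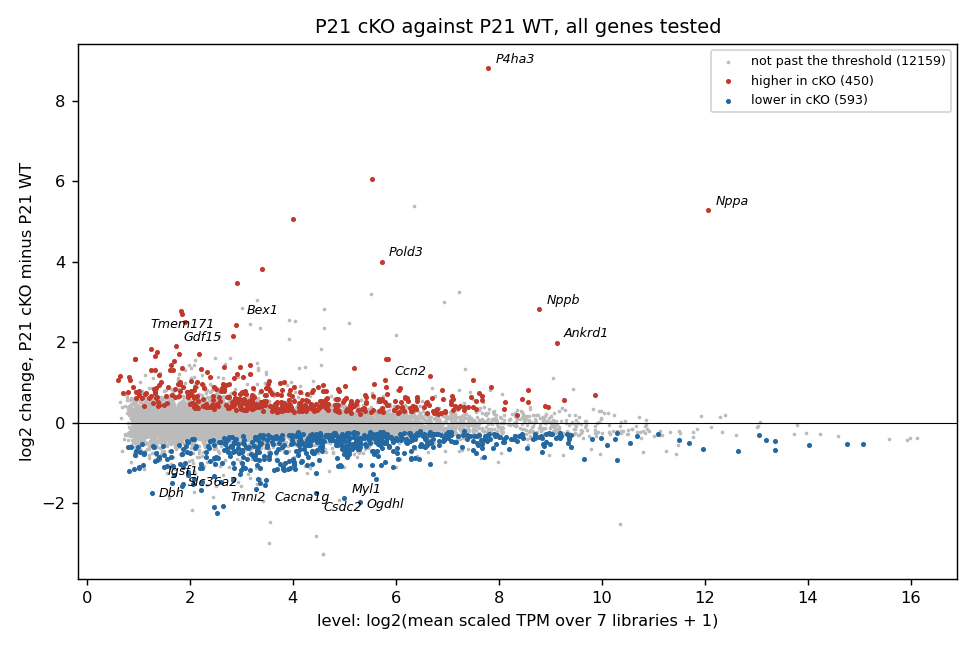
Log2 change between P21 cKO and P21 WT hearts (vertical axis) against the level, as log2 of the mean scaled TPM plus 1 over the 7 libraries (horizontal axis), for the 13202 genes tested. Red points are the 450 genes called higher and blue points the 593 called lower; labels mark some genes named in the text, with P4ha3 and Nppa farthest above 0 among the labelled genes.

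Nppa, Nppb and Ankrd1 rose steeply. Nppa and Nppb encode the atrial and B-type natriuretic peptides, hormones released by cardiomyocytes under wall stress, and Ankrd1 encodes an ankyrin repeat protein bound to titin in the sarcomere. Their promoters are printed because all 3 genes rose together. The 250 bases before the start site are from RefSeq (GRCm38.p6), written 5′ to 3′ on the gene's own strand, with matches to the TEAD motif CATTCC or the GATA motif AGATAA, on either strand, in capitals.
Nppa, chr4:148000472-148000721, plus strand: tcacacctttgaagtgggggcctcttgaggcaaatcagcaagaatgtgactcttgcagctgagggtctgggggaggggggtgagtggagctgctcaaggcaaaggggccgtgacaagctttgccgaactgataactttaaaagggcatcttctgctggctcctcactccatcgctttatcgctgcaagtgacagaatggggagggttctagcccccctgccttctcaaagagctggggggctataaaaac
Nppb, chr4:147985650-147985899, plus strand: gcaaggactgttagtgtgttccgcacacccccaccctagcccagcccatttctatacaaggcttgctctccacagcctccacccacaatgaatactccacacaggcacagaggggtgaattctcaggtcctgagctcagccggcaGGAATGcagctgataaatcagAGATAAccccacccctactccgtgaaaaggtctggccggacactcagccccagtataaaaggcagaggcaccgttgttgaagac
Ankrd1, chr19:36119845-36120094, minus strand: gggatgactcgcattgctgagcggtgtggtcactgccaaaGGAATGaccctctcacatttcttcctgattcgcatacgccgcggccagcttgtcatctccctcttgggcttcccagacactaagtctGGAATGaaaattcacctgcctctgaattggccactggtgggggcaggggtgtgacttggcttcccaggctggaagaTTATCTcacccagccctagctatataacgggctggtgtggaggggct
Nppb held a TEAD match 105 bases and a GATA match 84 bases before its start site. Ankrd1 held TEAD matches at 210 and 123 bases and a GATA match at 47 bases before its own. Nppa held none of the letters searched in this window. Of 32851 promoters of the same length, 12.6% held CATTCC and 9.99% held AGATAA. The searches for GTAAACA (FOXO, 3.17% of promoters), AAGGTCA (nuclear receptors of the ESRR type, 4.08%), TGACTCA (AP-1, 4.46%) and the CArG box (1.47%) found no match in the 3 promoters. A match describes the letters only.

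Nppa (chromosome 4, 148000722 to 148002079) had scaled TPM of 14410, 7377 and 7412 in cKO and 195, 185, 439 and 198 in WT. Nppa rose by 5.28 ± 0.36 (SE) on the log2 scale (adjusted p = 0.000781). The cKO library 55 was the highest of the 7, and WT 57 was the highest of the WT libraries. Nppb had 984, 766 and 804 in cKO and 93.9, 76.8, 241 and 116 in WT. Nppb rose by 2.82 ± 0.35 (SE) on the log2 scale (adjusted p = 0.00616). Ankrd1 had 1250, 848 and 790.5 in cKO and 168, 174, 413 and 261 in WT. Ankrd1 rose by 1.99 ± 0.32 (SE) on the log2 scale (adjusted p = 0.0133). In all 3 genes the groups stood far apart, and cKO 55 and WT 57, the pair set apart on the second component, were the highest of their groups. The summed level of atrial cardiomyocyte markers was 53.6 in cKO 55, 115 in cKO 59 and 275 in cKO 64. In the WT libraries it was 124 to 189.7. The atrial marker Bmp10 was at 4.48 in cKO 64 and at 0 in each other library. None of the 9 atrial markers tested rose, and Kcnj3 fell. The part of atrial tissue in the rise of Nppa was not tested.

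Of the 10 measured genes of the natriuretic system, which include processing enzymes and receptors, 2 rose, Nppa and Nppb, and the other 8 did not pass (list median of 0.12, or 0.31 with the TPM unscaled, where 2 passed higher and 0 lower). Of all genes tested 3.41% passed higher and 4.49% lower, or 14.6% and 1.83% with the TPM unscaled, and each list count is to be read against these shares. Of 25 fetal and stretch genes, 6 rose (3 without cKO 64) and 1 fell, with a median of 0.34, or 0.51 with the TPM unscaled, where 11 passed higher and 1 lower. Nmrk2, a muscle kinase that makes an NAD precursor, had 10.2, 10.8 and 12.4 in cKO and 3.83, 3.31, 4.17 and 3.12 in WT. Nmrk2 rose by 1.399 ± 0.11 (SE) on the log2 scale (adjusted p = 0.00136). Actn1, the non-muscle alpha-actinin, had 17.4, 15.8 and 15.6 in cKO and 11.4, 11.6, 12.3 and 11.8 in WT. Actn1 rose by 0.44 on the log2 scale (adjusted p = 0.0110). Ccn2, a secreted matricellular protein also called connective tissue growth factor, had 122, 82.7 and 63.6 in cKO and 17.4, 22.3, 40.8 and 37.2 in WT. Ccn2 rose by 1.599 on the log2 scale (adjusted p = 0.0289), a call lost without WT B6 2, WT B6 3, cKO 55, cKO 59 and cKO 64 in turn (log2 1.35 to 1.81, adjusted p = 0.0535 to 0.0909). Fhl2, a LIM-domain protein of the sarcomere and nucleus, fell from 1594, 1627, 1718 and 1434 in the WT to 855, 826 and 815 in the cKO libraries (log2 change -0.93 ± 0.071 (SE), adjusted p = 0.00119). The fetal isoforms most often read as signs of hypertrophy did not pass: beta-myosin heavy chain Myh7 had 4448, 4147 and 4170 against 4373, 4500, 5233 and 4338 (log2 -0.11, adjusted p = 0.473; 0.11 unscaled) and skeletal actin Acta1 had 303, 154 and 224 against 155, 115, 130.2 and 181 (log2 0.61, adjusted p = 0.173). These 2 isoforms were chosen after their values were seen.

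**Figure D2:**
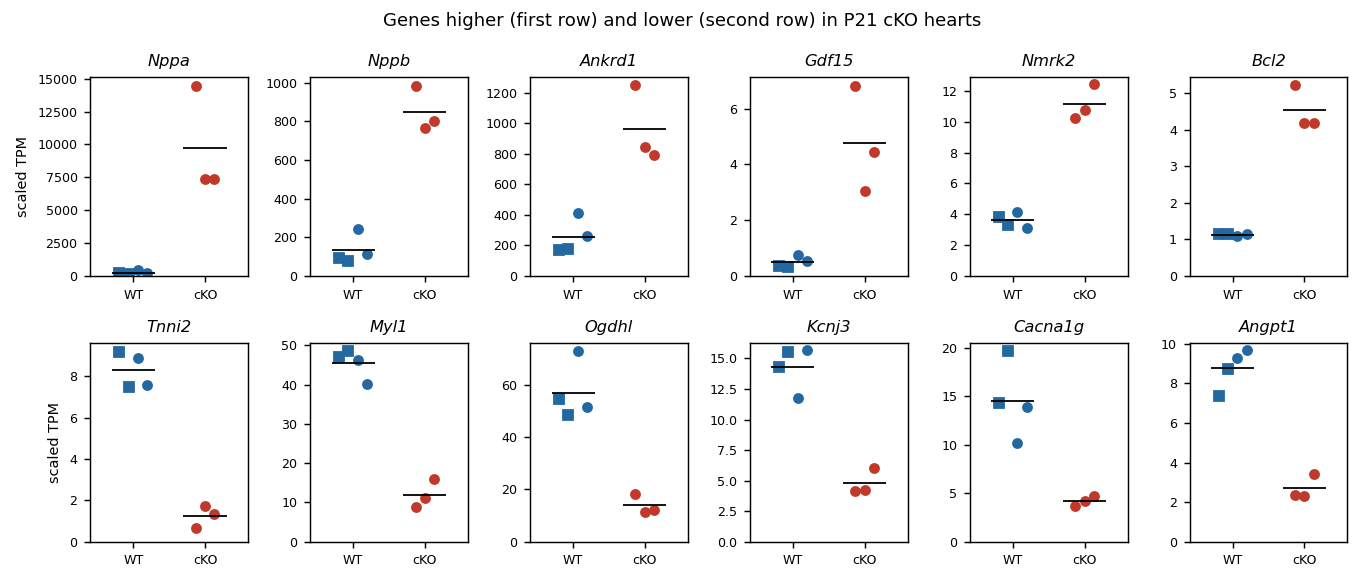
Scaled TPM in each P21 library (vertical axes, each from 0) for 6 genes that rose and 6 that fell in the cKO hearts; bars are group means, blue squares are WT libraries with B6 in the title, blue circles plain-number WT libraries and red circles cKO libraries. In each panel the 3 cKO points lie wholly above or wholly below the 4 WT points, as for Bcl2 at 4.19 to 5.24 against 1.10 to 1.14.

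Genes of the contractile apparatus moved in both directions. Of 32 genes of the sarcomere list, 3 rose (6 without WT 57) and 6 fell (2 to 3 without WT B6 3, cKO 55, cKO 59 and cKO 64 in turn), with a median of -0.068, or 0.15 with the TPM unscaled, where 10 passed higher and 3 lower. Tmod1, tropomodulin, which caps the thin filament, had 110.2, 123 and 117 in cKO and 165, 165, 164 and 156 in WT. Tmod1 fell by 0.47 ± 0.055 (SE) on the log2 scale (adjusted p = 0.00478). Smyd1, a muscle methyltransferase and myosin partner, fell less (136 to 145 against 176 to 190.3, log2 -0.39, adjusted p = 0.00681). The 2 named genes of this list that rose were Flnc, filamin C, a cross-linker of the Z-disc (59.3 to 66.2 against 40.3 to 47.7, log2 0.56, adjusted p = 0.00783), and Cavin4, a coat protein of muscle caveolae (60.8 to 63.1 against 39.98 to 44.4, log2 0.54, adjusted p = 0.00389). Of 27 genes of the intercalated disc and costamere, 1 rose and 3 fell (0 to 1 without WT B6 2, WT B6 3, WT 60, cKO 55, cKO 59 and cKO 64 in turn), against 3.41% of all genes higher and 4.49% lower. The list had a median of 0.057, or 0.27 with the TPM unscaled, where 7 passed higher and 0 lower. The 1 that rose was the desmosomal plakophilin Pkp2 (80.6, 75.8 and 73.5 against 47.1, 51.0, 55.8 and 54.8, log2 change 0.55, adjusted p = 0.00727).

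Isoforms of fast skeletal muscle, which were low in WT hearts, included genes that fell steeply. Tnni2, fast skeletal troponin I, had scaled TPM of 0.690, 1.72 and 1.35 in cKO and 9.18, 7.496, 8.87 and 7.59 in WT. Tnni2 fell by 2.07 ± 0.17 (SE) on the log2 scale (adjusted p = 0.00145). Myl1, the fast skeletal essential light chain, had 8.94, 11.2 and 15.9 in cKO and 47.0, 48.6, 46.1 and 40.2 in WT. Myl1 fell by 1.87 ± 0.17 (SE) on the log2 scale (adjusted p = 0.00209). Neither gene had a cKO library near the WT range. Of the 8 fast isoforms measured, 3 fell (between 2 and 4 with 1 library left out) and 1 rose (0 without WT B6 3, WT 57, cKO 59 and cKO 64 in turn), and 1 passed higher and 3 lower with the TPM unscaled. The fast myosins Myh1, Myh2 and Myh4, which define skeletal fibres, were under 0.1 TPM in all 7 libraries.

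A minority of the calcium handling genes of the sarcoplasmic reticulum fell. Of 20 genes of calcium handling, 0 rose and 4 fell, against 3.41% of all genes higher and 4.49% lower. Those 4 passed with every library left out, but the list had a median of -0.07, or 0.13 with the TPM unscaled, where 2 passed higher and 2 lower, and the unscaled lower calls were Ryr2 and Hrc. Ryr2, the release channel, had 163, 162 and 142 in cKO and 246, 256, 218 and 243 in WT. Ryr2 fell by 0.63 ± 0.077 (SE) on the log2 scale (adjusted p = 0.00592). Casq2, the calcium-binding calsequestrin of the lumen, had 362, 412 and 402 in cKO and 505, 509.6, 522 and 511 in WT. Casq2 fell by 0.39 on the log2 scale (adjusted p = 0.0115). Its anchor triadin (Trdn) had 108, 116 and 119.6 in cKO and 152, 166, 160.1 and 156 in WT. Trdn fell by 0.47 on the log2 scale (adjusted p = 0.00594). Hrc, the histidine-rich calcium-binding protein of the same compartment, had 275, 297 and 278 in cKO and 439, 464, 435 and 422 in WT. Hrc fell by 0.63 ± 0.056 (SE) on the log2 scale (adjusted p = 0.00199). In each of these genes all 3 cKO libraries lay under all 4 WT libraries.

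The ion channel genes that passed mostly fell. Of 13 sodium, calcium and pacemaker channel genes, 5 fell and 0 rose, against 3.41% of all genes higher and 4.49% lower, and the same 5 passed in each fit with 1 library left out (median of -0.32, or -0.17 with the TPM unscaled, where 1 passed higher and 5 lower). Cacna1g, a T-type calcium channel, had 3.71, 4.18 and 4.76 in cKO and 14.3, 19.7, 10.1 and 13.9 in WT. Cacna1g fell by 1.54 ± 0.19 (SE) on the log2 scale (adjusted p = 0.00616). Cacna2d1, an auxiliary subunit of L-type calcium channels, had 27.4, 27.5 and 28.2 in cKO and 39.8, 40.6, 47.2 and 43.4 in WT. Cacna2d1 fell by 0.61 on the log2 scale (adjusted p = 0.00478). The skeletal sodium channel Scn4a (0.482 to 0.894 against 2.10 to 3.18, log2 -1.10) and the pacemaker channel Hcn4 (0.539 to 0.970 against 2.15 to 2.31, log2 -0.91) also fell, and because both were near 1 TPM their log2 changes are larger with a pseudocount of 0.1 (-1.80 and -1.53). Of 20 potassium channel genes, 6 fell (3 without WT B6 3, cKO 55, cKO 59 and cKO 64 in turn) and 1 rose (median of -0.31, or -0.11 with the TPM unscaled, where 3 passed higher and 3 lower). Kcnj3 and Kcnj5, the subunits of the acetylcholine-activated potassium channel, fell together. Kcnj3 had 4.13, 4.23 and 6.04 in cKO and 14.3, 15.5, 11.8 and 15.7 in WT. Kcnj3 fell by 1.41 ± 0.14 (SE) on the log2 scale (adjusted p = 0.00320). Kcnj5 had 15.2, 16.4 and 15.1 in cKO and 22.9, 29.0, 24.4 and 24.9 in WT. Kcnj5 fell by 0.67 on the log2 scale (adjusted p = 0.00706). The transient outward channel split, since its pore subunit Kcnd2 fell (3.94 to 5.69 against 8.33 to 10.7, log2 -0.85, adjusted p = 0.0110) and its partner Kcnip2 rose (138 to 164 against 90.6 to 113, log2 0.59, adjusted p = 0.0133).

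In the adrenergic, muscarinic and angiotensin list 2 of 27 genes rose and 4 fell (1 to 2 without WT B6 2, WT B6 3, WT 60, cKO 55, cKO 59 and cKO 64 in turn), against 3.41% of all genes higher and 4.49% lower, and 7 passed higher and 1 lower with the TPM unscaled. The alpha-adrenergic receptor Adra1b had 9.01, 8.03 and 8.92 in cKO and 22.9, 22.5, 15.9 and 20.9 in WT. Adra1b fell by 1.15 ± 0.13 (SE) on the log2 scale (adjusted p = 0.00423). Prkar1a, a regulatory subunit that holds protein kinase A inactive until cyclic AMP binds, rose to 323, 289.7 and 322 from 149.5, 152, 183 and 189 (log2 change 0.89 ± 0.10 (SE), adjusted p = 0.00434). Dbh, the enzyme that makes noradrenaline from dopamine, fell (0.798 to 1.6 against 4.56 to 8.36, log2 -1.48, adjusted p = 0.0115).

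**Figure D3:**
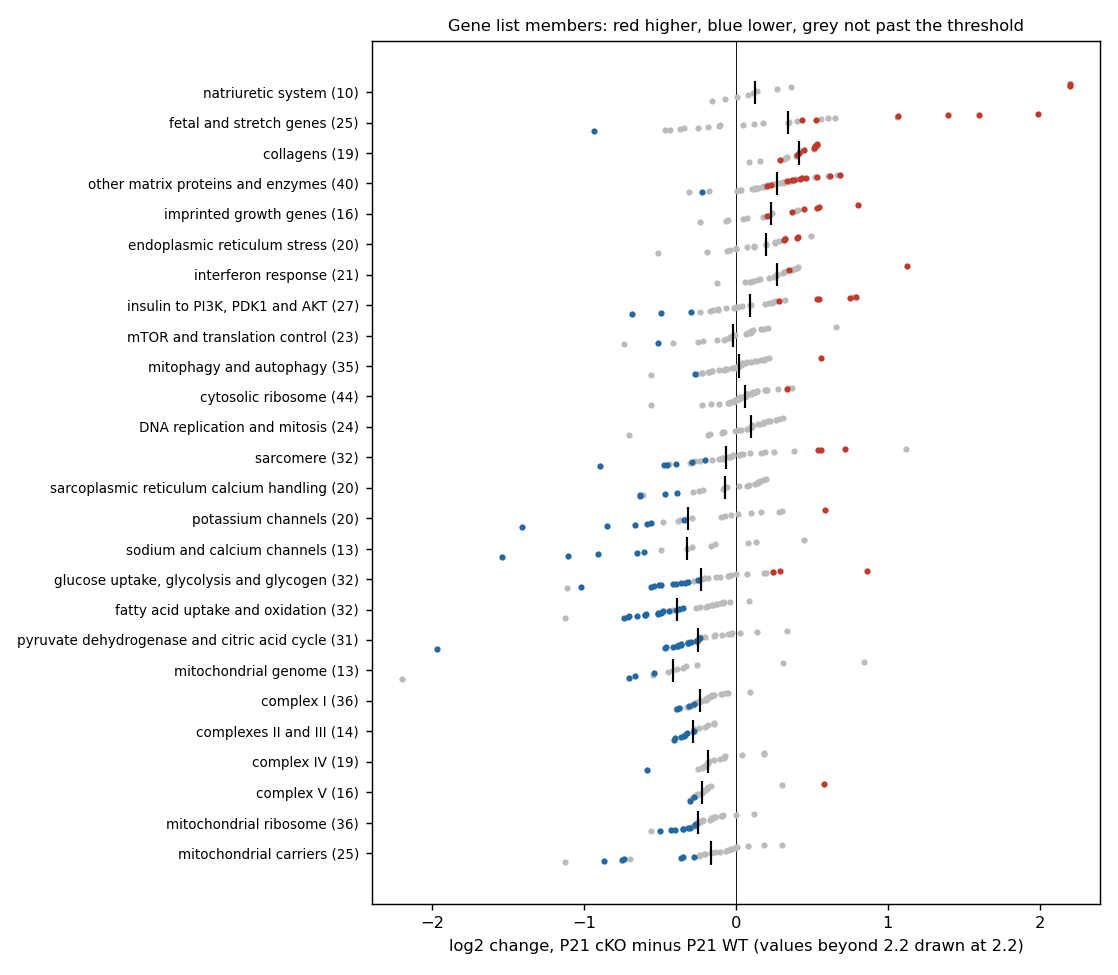
Log2 change of each measured member of 26 gene lists (horizontal axis, P21 cKO minus P21 WT, scaled TPM), with red for genes called higher, blue for genes called lower, grey for the rest, a black bar at each list's median and the number measured in brackets. The fatty acid list has 16 blue points of 32 and no red point; with the TPM unscaled, medians lie about 0.2 further right and those of complexes IV and V lie at 0.033 and -0.0023.

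Fatty acid genes held the most lower calls of the 57 lists. Of 32 genes of fatty acid uptake and oxidation, 16 fell and 0 rose (median of -0.39, or -0.17 with the TPM unscaled, where 0 passed higher and 11 lower), against 4.49% of all genes called lower. The count of lower calls was 9 without cKO 59, and 8 genes passed in every such fit. Slc25a20, which carries acylcarnitines into the mitochondrion, had 48.6, 51.1 and 53.5 in cKO and 79.4, 89.0, 86.2 and 88.8 in WT. Slc25a20 fell by 0.74 ± 0.063 (SE) on the log2 scale (adjusted p = 0.00175). Cpt2, which rebuilds acyl-CoA on the matrix side, had 57.5, 58.5 and 53.1 in cKO and 91.0, 101, 95.0 and 84.6 in WT. Cpt2 fell by 0.71 ± 0.072 (SE) on the log2 scale (adjusted p = 0.00320). Acaa2, the thiolase that ends each round of beta-oxidation, had 339, 342 and 325 in cKO and 507, 542, 621 and 536 in WT. Acaa2 fell by 0.71 ± 0.075 (SE) on the log2 scale (adjusted p = 0.00331). Etfdh, which passes its electrons on to coenzyme Q, had 169, 162 and 158 in cKO and 240.4, 241, 235 and 220.5 in WT. Etfdh fell by 0.52 ± 0.054 (SE) on the log2 scale (adjusted p = 0.00330). In all 4 genes the highest cKO library was below the lowest WT library. Dgat2, which makes triglyceride, fell further (54.4 to 73.9 against 114 to 151, log2 -1.03, adjusted p = 0.00572).

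Of 31 genes of the pyruvate dehydrogenase complex and citric acid cycle, 14 fell and 0 rose, against 3.41% of all genes higher and 4.49% lower. The lower calls numbered 3 to 9 without WT B6 2, WT B6 3, cKO 55, cKO 59 and cKO 64 in turn. The list had a median of -0.25, or -0.031 with the TPM unscaled, where 3 passed higher and 3 lower, so the one-sided count was not kept there. Ogdhl, a tissue-restricted relative of the oxoglutarate dehydrogenase subunit, fell (18.2, 11.4 and 12.01 in cKO and 54.5, 48.5, 72.8 and 51.2 in WT; log2 change -1.97 ± 0.19 (SE), adjusted p = 0.00265). Idh3a, the catalytic subunit of NAD-dependent isocitrate dehydrogenase, had 229, 224 and 222 in cKO and 310.3, 307, 324 and 307 in WT. Idh3a fell by 0.47 on the log2 scale (adjusted p = 0.00307). Suclg1, a subunit of succinyl-CoA ligase, had 223, 223 and 222 in cKO and 311, 311, 325 and 284 in WT. Suclg1 fell by 0.46 on the log2 scale (adjusted p = 0.00615).

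Part of the glucose and glycogen genes fell: 11 of 32 were lower (6 without cKO 59) and 3 higher (0 to 1 without WT B6 2, WT B6 3, cKO 55, cKO 59 and cKO 64 in turn), against 3.41% of all genes higher and 4.49% lower, with a median of -0.23, or -0.031 with the TPM unscaled, where 5 passed higher and 5 lower. Glycogen handling was represented on both its building and its breakdown side. Glycogen synthase Gys1 was at 24.7, 26.0 and 23.3 against 36.9, 39.3, 34.3 and 37.0 (log2 change -0.56, adjusted p = 0.00557) and the catalytic subunit of phosphorylase kinase Phkg1 at 7.35, 10.9 and 9.64 against 18.9, 21.3, 18.6 and 19.9 (log2 change -1.02, adjusted p = 0.00557). Muscle phosphofructokinase Pfkm, the main control step of glycolysis, was at 297 to 313 against 372 to 403 (log2 -0.36, adjusted p = 0.00874). Of 22 genes for using ketones and branched-chain amino acids 4 fell (1 to 2 without WT B6 2, WT B6 3, WT 60, cKO 55, cKO 59 and cKO 64 in turn) and 1 rose, and 2 passed higher and 0 lower with the TPM unscaled, with Bckdha, a subunit of the branched-chain ketoacid dehydrogenase, at 74.7 to 83.4 against 98.5 to 111 (log2 -0.41, adjusted p = 0.0119). Ckmt2, the mitochondrial creatine kinase, was at 1181 to 1250 against 1567 to 1813 (log2 -0.51, adjusted p = 0.00706).

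Some genes of the respiratory chain fell. Of 13 genes of the mitochondrial genome, 3 fell (0 without cKO 59 and cKO 64 in turn and 6 to 7 without WT 57 and WT 60 in turn), against 4.49% of all genes, with a median of -0.42, or -0.20 with the TPM unscaled, where 0 passed higher and 5 lower. The cytochrome b gene mt-Cytb had 4964, 4415 and 4677 in cKO and 7767, 8251, 8311 and 6344 in WT. mt-Cytb fell by 0.70 on the log2 scale (adjusted p = 0.0121), a call lost without cKO 59 and cKO 64 in turn (log2 -0.70 to -0.66, adjusted p = 0.0510 to 0.0549). The complex I gene mt-Nd4 had 8070, 7540 and 8230 in cKO and 12750, 13340, 13840 and 10590 in WT. mt-Nd4 fell by 0.66 on the log2 scale (adjusted p = 0.0128), lost without cKO 59 and cKO 64 in turn (log2 -0.69 to -0.63, adjusted p = 0.05002 to 0.0633). Of the nuclear subunits, 4 of 36 of complex I fell (0 to 2 without WT B6 2, WT B6 3, cKO 55, cKO 59 and cKO 64 in turn and 8 without WT 60), 7 of 14 of complexes II and III (1 to 2 without WT B6 2, WT B6 3, cKO 55, cKO 59 and cKO 64 in turn), 1 of 19 of complex IV (0 without WT B6 2, WT B6 3, WT 60, cKO 55 and cKO 64 in turn) and 2 of 16 of complex V (0 without WT B6 2, WT B6 3, cKO 55, cKO 59 and cKO 64 in turn and 7 without WT 57). With the TPM unscaled the lower calls of these 4 groups were 0, 2, 0 and 0. Their medians were -0.24, -0.28, -0.18 and -0.22, and with the TPM unscaled -0.016, -0.064, 0.033 and -0.0023. Ndufs1, the largest subunit of complex I, was at 271 to 293 against 339 to 358 (log2 -0.31), a call lost without WT B6 3 and cKO 59 in turn (log2 -0.30, adjusted p = 0.0509 to 0.0649). Uqcrb of complex III was at 1023 to 1044 against 1327 to 1472 (log2 -0.41), and its core subunit Uqcrc1 at 741 to 767 against 940.0 to 1084 (log2 -0.40), lost without cKO 59 (log2 -0.39, adjusted p = 0.0543). Atpif1, the inhibitor that stops ATP synthase from running in reverse, went the other way, with 411, 451 and 436 in cKO and 273, 286, 328 and 270.1 in WT. Atpif1 rose by 0.58 ± 0.079 (SE) on the log2 scale (adjusted p = 0.00797).

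Some genes of the mitochondrial ribosome fell, with 9 of 36 genes lower (2 to 3 without WT B6 2, WT B6 3, cKO 55, cKO 59 and cKO 64 in turn) and 0 higher, against 3.41% of all genes higher and 4.49% lower. The list had a median of -0.25, or -0.035 with the TPM unscaled, where 1 passed higher and 0 lower, so none of the lower calls was kept there. Mrps22 and Mrps35, proteins of its small subunit, were at 14.9 to 15.4 against 20.2 to 21.1 (log2 -0.43) and 58.4 to 64.4 against 77.2 to 84.0 (log2 -0.40). Immt, the core of the complex that shapes cristae junctions, was at 219.9 to 224 against 269.5 to 298 (log2 -0.35). Of 25 mitochondrial carriers, 6 fell (3 without cKO 59 and 2 without cKO 64), and 4 passed higher and 3 lower with the TPM unscaled. The coenzyme A carrier Slc25a42 was at 12.6 to 15.7 against 21 to 28.1 (log2 -0.75, adjusted p = 0.0126) and the uncoupling protein Ucp2 at 49.1 to 56.2 against 80.7 to 119 (log2 -0.87), a call lost without cKO 59 and cKO 64 in turn (log2 -0.86 to -0.83, adjusted p = 0.0613 to 0.0643). Gsta4, which clears lipid peroxidation products, was at 28.4 to 37.5 against 54.7 to 68.7 (log2 -0.82, adjusted p = 0.0107). Among the regulators, the orphan nuclear receptor Esrrb rose (7.79, 7.81 and 9.13 against 5.55, 5.23, 4.71 and 4.65, log2 0.61, adjusted p = 0.0110) and the retinoid receptor Rxrg fell (20.6, 23.3 and 21.5 against 37.1, 38.5, 45.0 and 39.3, log2 -0.84, adjusted p = 0.00265).

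The series title names mitochondrial dynamics and mitophagy, so those lists were read next. Of 15 fission and fusion genes, 2 fell (0 to 1 without WT B6 2, WT B6 3, cKO 55 and cKO 64 in turn) and 0 rose, against 3.41% of all genes higher and 4.49% lower (median of -0.18, or 0.03 with the TPM unscaled, where 1 passed higher and 0 lower). Mief2, which recruits the fission enzyme to the outer membrane, had 8.75, 11.5 and 9.25 in cKO and 16.2, 13.4, 16.4 and 15.1 in WT. Mief2 fell by 0.59 on the log2 scale (adjusted p = 0.0197), a call lost without WT B6 2, cKO 55 and cKO 64 in turn (log2 -0.56 to -0.52, adjusted p = 0.0562 to 0.0817). Mtfp1, an inner-membrane fission protein, had 59.3, 71.5 and 67.7 in cKO and 87.0, 86.8, 95.6 and 83.7 in WT. Mtfp1 fell by 0.41 on the log2 scale (adjusted p = 0.0215), lost without WT B6 2, WT B6 3 and cKO 64 in turn (log2 -0.43 to -0.42, adjusted p = 0.0592 to 0.0698). Dnm1l, the fission enzyme itself, did not pass (30.2, 34.1 and 31.0 against 38.6, 37.4, 34.0 and 34.7, log2 -0.18, adjusted p = 0.167; 0.0302 unscaled), and the 13 members that did not pass lay between -0.27 and 0.037. Of 35 mitophagy and autophagy genes, 1 rose (0 without WT B6 2, WT B6 3, WT 60, cKO 55, cKO 59 and cKO 64 in turn) and 1 fell (0 without WT B6 3, cKO 55, cKO 59 and cKO 64 in turn and 2 without WT 60), with a median of 0.02, or 0.22 with the TPM unscaled, where 8 passed higher and 0 lower. Gabarapl1, a membrane-bound autophagy protein, had 75.5, 58.1 and 54.2 in cKO and 39.6, 36.8, 46.3 and 44.5 in WT. Gabarapl1 rose by 0.56 on the log2 scale (adjusted p = 0.0398), lost without WT B6 2, WT B6 3, WT 60, cKO 55, cKO 59 and cKO 64 in turn (log2 0.42 to 0.66, adjusted p = 0.0594 to 0.101). Rab7, a GTPase of late endosomes, had 113, 113 and 113 in cKO and 142, 132, 143 and 129 in WT. Rab7 fell by 0.27 on the log2 scale (adjusted p = 0.0276), lost without WT B6 2, WT B6 3, cKO 55, cKO 59 and cKO 64 in turn (log2 -0.28 to -0.25, adjusted p = 0.0650 to 0.102). The mitophagy kinase Pink1 was at 177, 179 and 175 against 190.0, 214, 220.5 and 222 (log2 -0.25, adjusted p = 0.0571) and the receptor Bnip3 at 110.4, 84.1 and 86.5 against 85.9, 88.9, 77.2 and 79.5 (log2 0.17, adjusted p = 0.386). Neither passed, and Dnm1l, Pink1 and Bnip3 were picked for their place in the pathway after earlier values had been seen.

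In scaled TPM, the summed level of 8 cardiomyocyte markers moved with these groups: it was 54172 to 54652 in the cKO libraries and 57953 to 66260 in the WT libraries, and 3 of the 8 (Mb, Ryr2 and Tnnt2) fell while the other 5 did not pass. With the TPM unscaled the sums were 57316 to 61129 in the cKO libraries and 54997 to 60972 in the WT libraries, and the groups overlapped. Its part in the falls of fuel, channel and calcium genes was not tested.

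In the signalling pathway itself, Igf1r and Insr rose and Pik3r1 fell. Of 27 genes from insulin to AKT, 5 rose (1 to 3 without WT B6 2, WT B6 3, WT 60, cKO 55, cKO 59 and cKO 64 in turn) and 3 fell, Pdpk1 among them (1 without WT B6 2, WT B6 3, cKO 59 and cKO 64 in turn), against 3.41% of all genes higher and 4.49% lower, and 7 passed higher and 1 lower with the TPM unscaled. Igf1r, the receptor for insulin-like growth factors, had 7.85, 7.51 and 6.81 in cKO and 3.37, 4.22, 3.48 and 4.41 in WT. Igf1r rose by 0.79 ± 0.11 (SE) on the log2 scale (adjusted p = 0.00771). Insr, the insulin receptor, had 29.6, 25.8 and 25.7 in cKO and 17.5, 17.2, 16.8 and 21.7 in WT. Insr rose by 0.55 on the log2 scale (adjusted p = 0.0207), a call lost without WT B6 2, WT B6 3, cKO 55, cKO 59 and cKO 64 in turn (log2 0.48 to 0.58, adjusted p = 0.0612 to 0.0650). Pik3r1, the regulatory subunit of PI3-kinase, had 13.01, 11.3 and 11.0 in cKO and 19.5, 19.9, 20.7 and 18.1 in WT. Pik3r1 fell by 0.69 ± 0.079 (SE) on the log2 scale (adjusted p = 0.00478). Of 23 genes of mTOR and translation control, 1 passed (4 passed higher and 1 lower with the TPM unscaled), the muscle elongation factor Eef1a2 (366 to 383 against 504 to 588, log2 -0.51, adjusted p = 0.00629). Of 26 FOXO factors and targets, 2 rose (0 without WT B6 2, WT B6 3, cKO 55, cKO 59 and cKO 64 in turn) and 2 fell (1 without WT B6 2, WT B6 3, WT 60, cKO 59 and cKO 64 in turn), and 4 passed higher and 0 lower with the TPM unscaled. Among those that fell was Fbxo31, a ubiquitin ligase subunit (16.6 to 19.3 against 24.9 to 28.3, log2 -0.55, adjusted p = 0.00906).

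Survival and stress genes changed in small numbers. Bcl2, which blocks mitochondrial apoptosis, had 5.24, 4.19 and 4.197 in cKO and 1.14, 1.14, 1.10 and 1.14 in WT. Bcl2 rose by 1.38 ± 0.10 (SE) on the log2 scale (adjusted p = 0.00109), with nearly equal WT values. Ccng1, a cyclin induced by p53, fell (136, 132 and 141 against 238, 234, 235 and 205, log2 change -0.74, adjusted p = 0.00210). These were among 3 higher and 1 lower of 26 genes of apoptosis and p53, against 3.41% of all genes higher and 4.49% lower. The higher calls numbered 1 without WT B6 2, WT B6 3, WT 60, cKO 55, cKO 59 and cKO 64 in turn, and 8 passed higher and 1 lower with the TPM unscaled. Gdf15, a secreted stress hormone, had 6.80, 3.04 and 4.45 in cKO and 0.358, 0.326, 0.766 and 0.531 in WT. Gdf15 rose by 1.90 ± 0.23 (SE) on the log2 scale (adjusted p = 0.00530), and a pseudocount of 0.1 raised the change to 3.02. Aldh1l2, a mitochondrial folate enzyme, fell (0.964, 1.32 and 1.25 against 5.07, 4.31, 3.82 and 6.04, log2 change -1.403, adjusted p = 0.00330), and the stress response list held 2 higher (1 without WT B6 2, WT B6 3, WT 57, WT 60, cKO 59 and cKO 64 in turn) and 1 lower of 24, or 2 and 1 with the TPM unscaled. Of 20 endoplasmic reticulum stress genes 4 rose (0 to 2 without WT B6 2, WT B6 3, WT 60, cKO 55, cKO 59 and cKO 64 in turn), and 12 passed higher and 0 lower with the TPM unscaled. The small heat shock protein Hspb2 fell (61.7 to 73.5 against 95.4 to 111, log2 -0.58, adjusted p = 0.00996). Ifit2, an interferon-induced gene, had 8.50, 11.3 and 8.603 in cKO and 3.41, 3.84, 3.23 and 4.76 in WT. Ifit2 rose by 1.12 on the log2 scale (adjusted p = 0.00635). Psmb10, a subunit of the immunoproteasome, had 58.7, 56.8 and 59.6 in cKO and 36.1, 32.6, 42.0 and 36.2 in WT. Psmb10 rose by 0.66 on the log2 scale (adjusted p = 0.00661). In all, 2 of 21 interferon genes (1 without WT B6 2, WT B6 3, WT 60, cKO 55 and cKO 59 in turn) and 1 of 16 antigen presentation genes rose (7 and 5 with the TPM unscaled), while none of 13 macrophage markers passed (summed level 208 to 271 in the cKO libraries and 260.0 to 407 in the WT libraries).

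The matrix genes that passed rose, with 1 exception. Of 19 collagens 9 rose and 0 fell (median of 0.41, or 0.62 with the TPM unscaled, where 16 passed higher and 0 lower), against 3.41% of all genes called higher. The collagen calls were fragile and numbered 0 to 3 without WT B6 2, WT B6 3, WT 60, cKO 59 and cKO 64 in turn. Col4a1, of basement membranes, had 230.0, 236 and 214 in cKO and 165, 150.3, 137 and 174 in WT. Col4a1 rose by 0.53 on the log2 scale (adjusted p = 0.0137), a call lost without cKO 59 (log2 0.50, adjusted p = 0.0629). Col3a1, of fibrous matrix, had 288, 338 and 383 in cKO and 258, 228, 214 and 231 in WT. Col3a1 rose by 0.52 on the log2 scale (adjusted p = 0.0260), lost without WT B6 3, WT 60, cKO 59 and cKO 64 in turn (log2 0.42 to 0.52, adjusted p = 0.0552 to 0.0968). Of 40 other matrix genes 11 rose and 1 fell (median of 0.27, or 0.46 with the TPM unscaled, where 24 passed higher and 0 lower), and the higher calls numbered 3 to 7 without WT B6 2, WT B6 3, WT 60, cKO 59 and cKO 64 in turn. Bgn, biglycan, a small proteoglycan, had 102, 104 and 104 in cKO and 76.02, 64.8, 70.3 and 73.5 in WT. Bgn rose by 0.53 ± 0.064 (SE) on the log2 scale (adjusted p = 0.00557). Sparc, a collagen-binding glycoprotein, had 545, 568 and 570.0 in cKO and 451, 410.4, 397 and 415 in WT. Sparc rose by 0.42 on the log2 scale (adjusted p = 0.00851). Lama4, a laminin chain of vessels and muscle, was at 26.9 to 29.7 against 19.9 to 22.1 (log2 0.43, adjusted p = 0.0104). P4hb, a protein disulfide isomerase that is also a subunit of collagen prolyl hydroxylase, was at 122, 116 and 113 against 84.9, 83.2, 87.7 and 86.1 (log2 change 0.45, adjusted p = 0.00416).

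Of the 12 fibroblast markers, 7 rose (Col1a1, Dcn, Col3a1, Dpt, Gsn, Col1a2 and Pcolce) and none fell. Lum, Pdgfra, Tcf21, Mfap5 and Fbln1 did not pass. Those that rose include collagens, Col3a1 being named above, so they are not separate from the matrix result. The sum of the 12 was 1617 to 1837 in the cKO libraries and 1227 to 1398 in the WT libraries. With the TPM unscaled it was 1711 to 2027 in the cKO libraries and 1073 to 1407 in the WT libraries. Among the other cell types, 2 of 14 endothelial markers (Pecam1 and Cldn5), 1 of 4 endocardial (Plvap) and 1 of 8 pericyte markers (Cspg4) rose, and 1 of 6 smooth muscle markers (Smtn) fell. Of all genes, 3.41% were called higher and 4.49% lower. Endocardial sums (50.5 to 65.6 against 37.8 to 45.1) and pericyte sums (421 to 462 against 320 to 418) lay above all WT libraries. So did the low sums of Schwann cell markers (7.67 to 9.57 against 4.72 to 5.06). The sums overlapped for endothelial, lymphatic endothelial, smooth muscle, epicardial, macrophage, lymphocyte, neutrophil, adipocyte and red cell markers. The part of cell composition in the matrix result was not tested. Angpt1, which stabilises vessels, fell to 2.38, 2.32 and 3.40 from 7.34, 8.74, 9.28 and 9.67 (log2 change -1.41 ± 0.13 (SE), adjusted p = 0.00265), and Fgf16, a heart growth factor, was at 4.75 to 5.12 against 7.30 to 10.2 (log2 -0.68, adjusted p = 0.0126). Of 16 imprinted growth genes 6 rose (1 to 3 without WT B6 2, WT B6 3, WT 57, WT 60, cKO 55, cKO 59 and cKO 64 in turn), against 3.41% of all genes, and 11 passed higher and 0 lower with the TPM unscaled. They include the amino acid transporter Slc38a4 (9.55 to 10.2 against 5.86 to 6.81, log2 0.54, adjusted p = 0.00851).

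**Figure D4:**
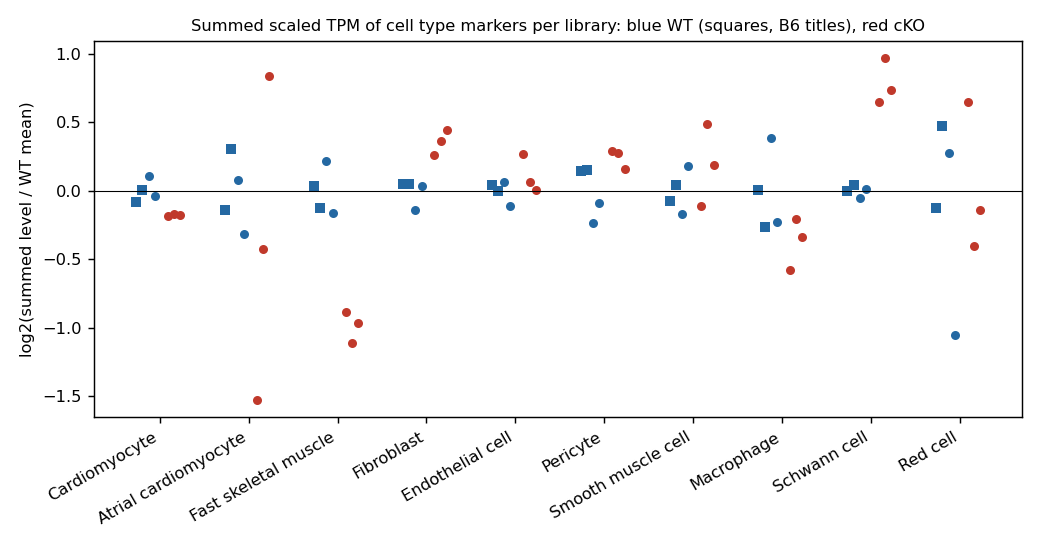
Summed scaled TPM of each cell type's markers in each P21 library, as log2 of the ratio to the WT mean (vertical axis), with blue for WT libraries (squares where the title has B6) and red for cKO libraries. The fibroblast sums of the cKO libraries (1617 to 1837 scaled TPM) lie above all WT libraries, as do the pericyte and Schwann cell sums. The cardiomyocyte sums (54172 to 54652) lie below all WT libraries, as do the fast skeletal muscle sums. The cardiomyocyte sums overlap with the TPM unscaled. The atrial sum of cKO 64 stands apart from the other 2 cKO libraries.

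Among the named genes with the largest changes were P4ha3, a catalytic subunit of collagen prolyl hydroxylase (chromosome 7, 100285520 to 100319699), and Pold3, a subunit of DNA polymerase delta (chromosome 7, 100082111 to 100121565). P4ha3 had scaled TPM of 543, 514 and 492 in cKO and 0.0738, 0.326, 0.103 and 0.128 in WT. P4ha3 rose by 8.81 ± 0.089 (SE) on the log2 scale (adjusted p = 5.36e-09). Pold3 had 141, 98.5 and 101 in cKO and 6.11, 5.66, 5.24 and 7.37 in WT. Pold3 rose by 4.003 ± 0.15 (SE) on the log2 scale (adjusted p = 3.61e-05). The 2 genes are neighbours, and both stood apart at P7 as well (log2 7.69 and 3.11). Within 5 Mb on each side of P4ha3, 4 genes rose and 9 fell of 84 tested (15.5%), against 7.9% of all genes, 5.84% of the 154 genes around Pdpk1 and 8.05% of the 87 around Nppa. The calls around P4ha3 include Dgat2 and Ucp2, given above among the fuel and mitochondrial genes. Whether their falls are linked to this position was not tested. Outside the gene lists, Bex1, a small adaptor protein of developing tissue, had 11.3, 10.51 and 17.2 in cKO and 2.24, 1.43, 1.22 and 1.396 in WT. Bex1 rose by 2.43 ± 0.19 (SE) on the log2 scale (adjusted p = 0.00145). Cdkl1, a kinase related to the cyclin-dependent kinases, had 9.76, 8.89 and 7.81 in cKO and 2.83, 2.86, 2.70 and 2.54 in WT. Cdkl1 rose by 1.39 ± 0.093 (SE) on the log2 scale (adjusted p = 0.000728). Tmem171, Scgb1c1 and Gnb3 also rose (7.06 to 14.5 against 1.03 to 2.89, 51.5 to 61.0 against 17.5 to 28.2 and 5.79 to 8.16 against 1.30 to 3.04, log2 2.17, 1.35 and 1.27).

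Among the genes that fell most, Csdc2, an RNA-binding cold-shock protein, had 8.85, 9.02 and 7.33 in cKO and 32.7, 31.5, 31.8 and 25.4 in WT. Csdc2 fell by 1.74 ± 0.11 (SE) on the log2 scale (adjusted p = 0.000642). Slc36a2, a proton-coupled transporter of small amino acids, had 3.51, 4.56 and 4.19 in cKO and 12.1, 13.6, 13.1 and 14.02 in WT. Slc36a2 fell by 1.49 ± 0.094 (SE) on the log2 scale (adjusted p = 0.000642). The immunoglobulin superfamily protein Igsf1 (1.67 to 2.24 against 5.54 to 10.7, log2 -1.48), Lrtm1 (20.2 to 30.01 against 60.2 to 70.3, log2 -1.397) and the lectin Lgals4 (22.1 to 31.1 against 53.7 to 68.3, log2 -1.26) fell as well. Psme4, a proteasome activator, was singled out after its values were seen for its even libraries: it had 28.4, 27.2 and 28.7 in cKO and 60.2, 58.6, 57.5 and 58.98 in WT. Psme4 fell by 1.04 ± 0.05 (SE) on the log2 scale (adjusted p = 0.000134). Nnt, the mitochondrial transhydrogenase, and Gm10184, a gene without an assigned role, were also singled out after their values were seen. Nnt had 166, 304 and 307 in cKO and 114, 120.2, 119 and 125 in WT. Nnt rose by 1.05 on the log2 scale (adjusted p = 0.0224), a call lost without WT B6 2, WT B6 3, cKO 59 and cKO 64 in turn (log2 0.90 to 1.06, adjusted p = 0.0642 to 0.0863). Gm10184 had 47.3, 28.6 and 29.8 in the cKO libraries, was at 0.261 in WT B6 3 and was listed at 0 in the other 3 WT libraries (adjusted p = 3.61e-05). The calls of 4 further genes were fragile. Tnfrsf12a, the TWEAK receptor, was at 84.0 to 97.6 against 16.4 to 61.2 (log2 1.58) and lost its call without WT B6 2, WT B6 3, WT 60, cKO 55, cKO 59 and cKO 64 in turn (log2 1.32 to 1.62, adjusted p = 0.0622 to 0.137). Eps8l1 was at 5.87 to 5.96 against 0.622 to 3.88 (log2 1.34), lost without WT B6 2, WT B6 3, WT 57, cKO 55, cKO 59 and cKO 64 in turn (log2 1.09 to 1.36, adjusted p = 0.0635 to 0.141). Tmem100 was at 3.24 to 5.65 against 6.36 to 16.9 (log2 -1.395), lost without WT B6 2, WT B6 3, WT 60, cKO 59 and cKO 64 in turn (log2 -1.36 to -1.25, adjusted p = 0.0766 to 0.135). Rtn4r, the Nogo receptor, was at 1.74 to 2.02 against 2.75 to 9.02 (log2 -1.31), lost without WT B6 2, WT B6 3, WT 57, cKO 55, cKO 59 and cKO 64 in turn (log2 -1.34 to -1.15, adjusted p = 0.0856 to 0.143).

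Some lists held few calls or none. None of 24 genes of DNA replication and mitosis passed in limma (1 at an unadjusted p under 0.05), with a median of 0.10, or 0.24 with the TPM unscaled, where 0 passed higher and 0 lower, and none of 15 glucocorticoid-responsive genes passed (0 at an unadjusted p under 0.05; median of -0.31, or -0.16 with the TPM unscaled, where 0 passed higher and 0 lower). Of 44 cytosolic ribosomal proteins, 1 rose (median of 0.059, or 0.28 with the TPM unscaled, where 20 passed higher and 0 lower), and the higher calls numbered 0 without WT B6 2, WT B6 3, cKO 55, cKO 59 and cKO 64 in turn and 8 without WT 57. Of 18 clock genes 1 fell (0 without WT B6 2, WT B6 3, cKO 59 and cKO 64 in turn and 4 without cKO 55) and of 19 immediate early genes 1 rose (0 without WT B6 3 and cKO 64 in turn and 2 without WT 60; 5 passed higher and 0 lower with the TPM unscaled). A list whose members did not pass is not shown to be alike in the 2 groups.

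Whether the cKO effect at P21 differed from that at P7 was asked by the difference of the 2 effects in 1 limma fit over 15 libraries, scaled together, so levels in that fit are on a slightly different scale from those given so far. Of 14530 genes tested, 460 had a different effect at the 2 ages (3.17%), with 180 more positive at P21 (1.24%) and 280 more negative (1.93%). The count fell to between 129 and 302 without P7 cKO 69, 75 or 82, P21 cKO 59 or 64, P21 WT B6 2 or B6 3, or P7 WT 1, 76 or 77, with the fewest without P7 cKO 69. It was 90 against plain-number WT libraries alone, a fit without P7 WT 1 and 3 and without P21 WT B6 2 and B6 3. At P7 alone, 4 genes passed in this fit: P4ha3, Pold3, Gm6139 and Gm49708 (log2 7.69, 3.11, 1.48 and -1.23). Pdpk1 itself did not pass at P7, where the groups overlapped (6.79 to 7.20 in cKO and 6.89 to 9.45 in WT). Its log2 change there was -0.19 (limma, adjusted p = 0.9945). The difference between ages for Pdpk1 did not pass either (-0.32 ± 0.14 (SE), adjusted p = 0.273).

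Nppa showed a large positive difference, with 295 ± 75.1 in P7 WT, 587 ± 127 in P7 cKO, 301 ± 148 in P21 WT and 11482 ± 4811 in P21 cKO (mean ± SD of scaled TPM; difference 4.27 ± 0.45, adjusted p = 0.000671). The 2 WT means were close, and the P21 cKO mean was far above the other 3 groups. Bex1, whose P7 means were well above its P21 means, had 41.0 ± 6.72 in P7 WT, 53.7 ± 5.91 in P7 cKO, 1.86 ± 0.538 in P21 WT and 15.3 ± 4.23 in P21 cKO (difference 2.11 ± 0.25, adjusted p = 0.00121). Cdkl1 had 6.95 ± 0.838 in P7 WT, 7.07 ± 0.519 in P7 cKO, 3.23 ± 0.176 in P21 WT and 10.4 ± 1.19 in P21 cKO (difference 1.402 ± 0.13, adjusted p = 0.000325). Bcl2 had 2.39 ± 0.308 in P7 WT, 2.57 ± 0.222 in P7 cKO, 1.33 ± 0.0203 in P21 WT and 5.36 ± 0.724 in P21 cKO (difference 1.36 ± 0.13, adjusted p = 0.000325), and Igf1r had 7 ± 0.527 in P7 WT, 7.36 ± 0.901 in P7 cKO, 4.57 ± 0.607 in P21 WT and 8.71 ± 0.661 in P21 cKO (difference 0.75 ± 0.14, adjusted p = 0.0138). These 5 differences passed with each of the 15 libraries left out. That of Nppb (1.93) did not in 13 of those 15 fits, although its 4 group means ran 319, 573, 156 and 1004.

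Several genes low at P7 in both genotypes were higher at P21 in the WT libraries. Ogdhl had 4.44 ± 0.679 in P7 WT, 4.67 ± 0.518 in P7 cKO, 67.1 ± 13.2 in P21 WT and 16.4 ± 4.51 in P21 cKO (difference -2.05 ± 0.23, adjusted p = 0.000822). Tnni2 had 2.79 ± 0.638 in P7 WT, 2.42 ± 0.310 in P7 cKO, 9.79 ± 1.05 in P21 WT and 1.48 ± 0.612 in P21 cKO (difference -2.01 ± 0.24, adjusted p = 0.00105). Csdc2 had 2.85 ± 0.545 in P7 WT, 2.08 ± 0.325 in P7 cKO, 35.9 ± 4.03 in P21 WT and 9.90 ± 1.13 in P21 cKO (difference -1.44 ± 0.18, adjusted p = 0.00156). Kcnj3 had 4.79 ± 0.645 in P7 WT, 4.13 ± 0.808 in P7 cKO, 16.9 ± 2.10 in P21 WT and 5.65 ± 1.24 in P21 cKO (difference -1.26 ± 0.20, adjusted p = 0.00617), and Angpt1 had 2.85 ± 0.241 in P7 WT, 2.247 ± 0.410 in P7 cKO, 10.4 ± 1.21 in P21 WT and 3.18 ± 0.704 in P21 cKO (difference -1.197 ± 0.17, adjusted p = 0.00321). In these 5 genes the P21 cKO mean was nearer to the P7 means than to the P21 WT mean. They had been picked for a large fall at P21 or a large negative difference between ages, which favours such a pattern. Psme4 had 17.3 ± 1.10 in P7 WT, 15.9 ± 1.33 in P7 cKO, 69.5 ± 1.13 in P21 WT and 33.1 ± 0.875 in P21 cKO (difference -0.94 ± 0.085, adjusted p = 0.000325). Gadd45g (-1.81), a stress-induced growth arrest gene that did not pass at P21 (11.3, 8.66 and 10.2 against 18.8, 23.7, 39.2 and 13.7, log2 -1.08, adjusted p = 0.0770), had a large negative difference that was lost without P7 cKO 69, P7 cKO 82 and P21 cKO 59 in turn. In fatty acid oxidation, 16 of 32 genes had a more negative cKO effect at P21 than at P7, against 1.93% of all genes. The count was 8 without P7 cKO 69, 8 without P7 cKO 82 and 10 with the TPM unscaled. Slc25a20 had 116 ± 10.7 in P7 WT, 118 ± 9.01 in P7 cKO, 101 ± 5.23 in P21 WT and 60.2 ± 2.66 in P21 cKO (difference -0.77 ± 0.11, adjusted p = 0.00312), Cpt2 had 80.8 ± 6.34 in P7 WT, 76.99 ± 0.355 in P7 cKO, 109.7 ± 8.10 in P21 WT and 66.5 ± 3.60 in P21 cKO (difference -0.65 ± 0.10, adjusted p = 0.00601) and Acaa2 had 632 ± 38.7 in P7 WT, 635 ± 23.1 in P7 cKO, 652 ± 60.3 in P21 WT and 395 ± 12.02 in P21 cKO (difference -0.73 ± 0.099, adjusted p = 0.00270). For each the 2 genotypes had similar means at P7, and the 3 cKO libraries at P21 lay under the 4 WT libraries. Except for that of Gadd45g, the differences of this paragraph passed with each of the 15 libraries left out.

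**Figure D5:**
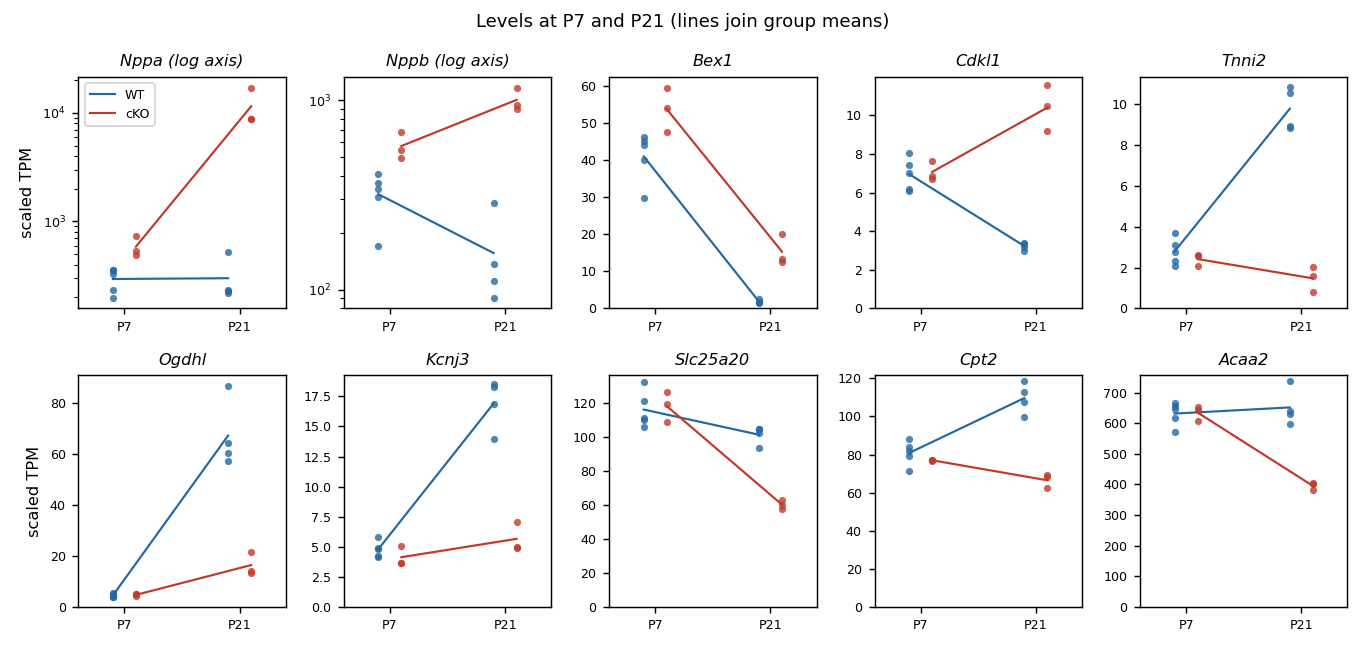
Scaled TPM of 10 genes at P7 and P21 (horizontal axis) in WT (blue) and cKO (red) hearts, each point a library and each line joining group means; Nppa and Nppb have log vertical axes and the other axes start at 0. The lines of Ogdhl, Tnni2 and Kcnj3 part between the ages, with P21 means of 67.1 and 16.4 for Ogdhl.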

How the data were processed

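The 19 libraries were made from mouse heart total RNA with a SMARTER mRNA-seq kit, per the labels' protocols. The authors deposited 1 table of TPM values with 2 decimals, per the file headers. TopHat2 2.0.14, Cufflinks 2.2.1 and build mm10 are named in the submitters' processing notes. The tool that made the TPM and the annotation are not given in the sources used here. The table has 55487 Ensembl genes and 579 genes assembled by the authors. Its 2 columns that match no sample and 7 columns of the authors' means were not used.

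The 7 libraries were divided by median-ratio size factors, since mitochondrially encoded transcripts took a different share of the TPM in the 2 groups. Genes with 1 TPM or more in 3 or more libraries were kept, log2(scaled TPM + 1) was fitted with limma 3.58.1 in R 4.3.3 (moderated by a trend on level), and p-values were adjusted by Benjamini-Hochberg over all genes tested, with calls at 0.05. The pseudocount understates changes of genes near 1 TPM. The age difference was fitted over 15 libraries in the same way. The script was tested on simulated data. A shared median cannot show a change common to most genes. TPM keep no read depth.

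Genes were named by a rule: Pdpk1 and Pdk1, up to 15 per direction with the largest change among calls with a mean of 5 TPM or more in 1 group and libraries that do not overlap, up to 4 per gene list and up to 6 per direction for the age difference, leaving out sex genes, placeholder names and look-alikes of mitochondrial genes. Not all genes that the rule allows are given, and a few are not reported here. The members, the 57 gene lists and the alternatives were chosen with earlier results of these data known. No list was tested: its counts are to be read against the share of all genes called, which the report gives. Symbols and positions are from GENCODE M21 (GRCm38, 12931 of the tested genes matched) and promoters from RefSeq (GRCm38.p6, 3 of 4 genes wanted). Alternatives were other scalings, pseudocounts, filters, priors, WT subsets, a title style term, library weights, all 18 grouped libraries and leaving out each library.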

Additional observations from a re-analysis of the deposited data

Results flagged for a closer look

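In 9 of the genes named in the report, 1 of the 4 P21 WT libraries stood apart from the other 3 by Dixon's ratio, which chance gives in about 1 in 20 groups of 4. In WT 57 this held for the scaled TPM of Nppa (439), Flnc (47.7), Bcl2 (1.10) and Dbh (8.36). In WT 60 this held for the scaled TPM of Tmod1 (156), Insr (21.7), Ccng1 (205) and Csdc2 (25.4). In WT B6 3 this held for the scaled TPM of Gm10184 (0.261). The 4 P21 WT libraries lay within a narrow band for several of these genes, such as Bcl2 (1.10 to 1.14).

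In 69 of the 108 genes named, the cKO effect on the log2 scale differed between P21 and P7 in the joint limma fit. Over all 14530 genes tested, 460 did (3.17%). Most named genes were chosen for their P21 change in these libraries, and some for this difference, so a high count was favoured in advance. A positive value is a more positive effect at P21. The differences of natriuretic and stretch genes were Nppa (4.27), Nppb (1.93), Nmrk2 (1.23) and Fhl2 (-0.76). For contractile and junction genes they were Tmod1 (-0.50), Tnni2 (-2.01), Myl1 (-1.56) and Pkp2 (0.45). Among calcium release genes they were Ryr2 (-0.74), Casq2 (-0.50), Trdn (-0.35) and Hrc (-0.68). Those of ion channels and receptors were Scn4a (-1.10), Cacna1g (-1.28), Cacna2d1 (-0.53), Hcn4 (-0.88), Kcnj3 (-1.26), Kcnd2 (-0.83), Adra1b (-0.999), Prkar1a (0.78) and Dbh (-1.24). The differences of fat and citric acid cycle genes were Slc25a20 (-0.77), Cpt2 (-0.65), Acaa2 (-0.73), Etfdh (-0.56), Dgat2 (-0.88), Ogdhl (-2.05), Idh3a (-0.52) and Suclg1 (-0.47). For glycogen genes they were Gys1 (-0.62) and Phkg1 (-1.07). Among respiratory chain and mitochondrial genes they were mt-Cytb (-0.71), mt-Nd4 (-0.63), Ndufs1 (-0.37), Uqcrb (-0.43), Atpif1 (0.61), Ucp2 (-0.95), Gsta4 (-0.68), Mtfp1 (-0.56) and Nnt (1.22). Those of signalling, survival and stress genes were Igf1r (0.75), Pik3r1 (-0.62), Fbxo31 (-0.74), Bcl2 (1.36), Ccng1 (-0.66), Gdf15 (1.35), Aldh1l2 (-1.28), Hspb2 (-0.50), Ifit2 (1.08), Psmb10 (0.54), Psme4 (-0.94), Rab7 (-0.30) and Gadd45g (-1.81). The differences of matrix and growth factor genes were Bgn (0.68), Sparc (0.41), Lama4 (0.45), P4hb (0.39), Col3a1 (0.66), Angpt1 (-1.197) and Slc38a4 (0.40). For the remaining genes they were P4ha3 (1.32), Pold3 (0.91), Bex1 (2.11), Tmem171 (1.76), Cdkl1 (1.402), Scgb1c1 (1.26), Csdc2 (-1.44), Slc36a2 (-1.03) and Lgals4 (-1.15). With each of the 15 libraries left out in turn, 33 of the 69 passed every time: Nppa, Fhl2, Tmod1, Tnni2, Scn4a, Cacna1g, Cacna2d1, Kcnj3, Adra1b, Prkar1a, Slc25a20, Cpt2, Acaa2, Etfdh, Ogdhl, mt-Nd4, Atpif1, Igf1r, Bcl2, Ccng1, Aldh1l2, Ifit2, Bgn, P4hb, Angpt1, Psme4, P4ha3, Bex1, Cdkl1, Scgb1c1, Csdc2, Slc36a2 and Lgals4. The other 36 were lost in at least 1 such fit.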

How the results depend on the processing

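The count of 1043 calls (450 higher, 593 lower) moved by more than 1.5 times in several fits. With the TPM as deposited it was 2173 (1931 and 242), with no filter on low values 609 (247 and 362), against plain-number WT libraries only 51 (21 and 30), with title style as a term 335 (117 and 218) and with library quality weights 1919 (900 and 1019). Fitting all 18 grouped libraries gave 1580 (808 and 772). Quantile normalization (1075), a pseudocount of 0.1 (1042), a filter of 5 TPM (1069), a constant prior (905) and leaving out cKO 55 with WT 57 (947), an alternative added after seeing the data, stayed near it. With 1 library left out the count ranged from 390 to 1087, the higher calls from 147 to 493 and the lower calls from 243 to 594. The 460 age differences became 1404 with the TPM as deposited, 277 with no filter, 90 against plain-number WT libraries only and 944 with library quality weights, and ranged from 129 to 688 with 1 library left out. The share of TPM from mitochondrially encoded genes differed by -3.19 percentage points, by -3.50 to -2.97 with 1 library left out, by -2.57 against plain-number WT libraries only and by -5.85 with nuclear look-alikes counted too. The cause of these shifts was not tested, and the subsets also held fewer libraries.

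Of the 101 named calls, 18 passed in every alternative and none reversed. For fits on fewer libraries, the lack of overlap between groups all but fixed the direction in advance. With no filter Ccn2, mt-Cytb, mt-Nd4, Insr, Col3a1, Nnt, Gabarapl1, Tnfrsf12a, Eps8l1, Tmem100 and Rtn4r no longer passed, with a constant prior Gabarapl1, Rab7, Tnfrsf12a, Eps8l1 and Rtn4r, with all 18 grouped libraries Ckmt2, Mrps35, Rxrg, Mtfp1 and Scgb1c1, without cKO 55 and WT 57 Insr, Mief2, Rab7, Eps8l1 and Rtn4r, and with quantile normalization or a pseudocount of 0.1 Eps8l1. Of the 7 named genes that were not called, Myh7 (0.11) and Dnm1l (0.0302) changed sign with the TPM as deposited. No paired analysis was possible because the P21 cKO and WT libraries share no replicate number. Read depth could not be used as a limit, since TPM do not keep it.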

Other observations

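P21 library 63 was in no group. Values in this paragraph and the next are TPM as deposited. Its Nppa was 191 against 8176 to 15241 in P21 cKO and 169.9 to 384 in P21 WT. P4ha3 was 0.05 against 542 to 575 in P21 cKO and 0.0700 to 0.300 in P21 WT, Tnni2 9.37 against 0.730 to 1.92 in P21 cKO and 6.89 to 8.71 in P21 WT, and Pdpk1 6.23 against 4.95 to 5.55 in P21 cKO and 6.17 to 7.65 in P21 WT. Of the 30 genes with the largest P21 changes that the text could name, 16 had a value in library 63 inside the WT range and 0 inside the cKO range. Gm10184 was 39.2 against 32.0 to 50.05 in P21 cKO and 0 to 0.240 in P21 WT.

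Gm10184 and Nnt, picked after their values were seen, did not follow the genotype labels over the whole series. Gm10184 was at 76.9 in P7 WT 72, 80.8 in P7 WT 77, 62.8 in P1 WT 2 and 44.8 in P1 WT 3, and at 66.1 to 70.8 in the 3 P7 cKO libraries, while the other 8 WT libraries had at most 1.12. Nnt was at 248 and 223 in P7 WT 72 and 77, at 155 to 158 in the P7 cKO libraries, at 176 in P21 cKO 55 and at 339.6 and 339 in P21 cKO 59 and 64.

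The second principal component of the P21 libraries, on which cKO 55 and WT 57 stood apart, went with genes of acute response, picked after their values were seen. In scaled TPM, the stress-induced factor Atf3 was at 21.9 and 24.6 in cKO 55 and WT 57 and 1.6 to 3.63 in the other 5 P21 libraries. The immediate early receptor Nr4a1 was at 112 and 71.5 in cKO 55 and WT 57 and 8.17 to 19.02 in the other 5 P21 libraries. The glucocorticoid-responsive chaperone Fkbp5 was at 7.77 and 11.7 in cKO 55 and WT 57 and 1.67 to 4.21 in the other 5 P21 libraries, and the clock gene Per2 was at 5.82 and 6.90 in cKO 55 and WT 57 and 0.625 to 3.46 in the other 5 P21 libraries. The order in which hearts were collected is not given in the sources used here.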
